A study of Mus musculus with 54 samples.

Results

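Serpins are protease inhibitors, and the 5 described here are Serpinb1a, Serpinb6a and Serpinb9 of clade B and Serpina3g and Serpina3f of clade A. They were chosen by name, and all 5 are listed in both deposited expression tables, among 10990 genes listed in either table. The tables come from group 2 innate lymphoid cells (ILC2s) of the mouse small intestine. Because the 5 genes were picked with the effect of interleukin-25 (IL-25) on these cultures already known, their culture levels are given as a description, without a test.

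A serpin presents a reactive loop as bait, and the protease that cuts it is trapped in a covalent complex and destroyed along with the inhibitor. Clade B serpins mostly stay inside the cell, where they protect lymphocytes and granulocytes against proteases that leak from their own granules and lysosomes. ILC2s are tissue lymphocytes that answer epithelial alarm signals such as IL-25 with type 2 cytokines. Retinoid X receptor gamma, encoded by Rxrg, is a ligand-activated nuclear receptor.

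All mice were C57BL/6 and 8 to 12 weeks old. In the first table, wild-type ILC2s from that tissue were kept in IL-2 plus IL-7, alone or with IL-25 added, for 4 h, 48 h or 72 h, giving 6 groups of 4 libraries. In the second table, primary ILC2s carry the labels nILC2 or iILC2, prefixes that stand for natural and inflammatory in this field, and CTRL (genotype WT) or KO, again in 4 groups of 4 libraries. The study text gives the knockout as Rxrg-/-, and the labels give every one of these 16 libraries, controls included, the treatment IL-25 for 48 h. The labels call the mice of both tables pooled male and female, and nothing in them says whether the 4 libraries of a group came from separate mice or cultures, so p-values here measure the spread between libraries, which may be technical.

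Levels are in TPM, a measure of transcript abundance corrected for transcript length and scaled within each library, so levels of different genes may be compared within a table. Read depth is unknown. Per library, all values of a table added up to 849733 to 898025 TPM, and between 9530 and 9941 genes had at least 1 TPM. Rxrg itself was measured at 12.3, 17.4, 12.2 and 18.4 TPM in nILC2 CTRL and at 2.58, 1.76, 1.27 and 3.12 TPM in nILC2 KO. In iILC2 it was at 1.72, 1.83, 1.26 and 1.68 TPM in CTRL and at 0.26, 0.48, 0 and 0.38 TPM in KO, so the KO libraries lay below the CTRL libraries in both cell populations. All 13 ILC2 markers examined were listed in both tables. Of the markers of other cell types, 3 of 8 T cell genes, 1 of 5 B cell genes, 1 of 10 mast cell and basophil genes, 1 of 8 macrophage and dendritic cell genes, 2 of 8 epithelial genes and 0 of 8 neutrophil and eosinophil genes were listed in the culture table. The summed level of 4 Y-linked genes was between 94.8 and 168 TPM in all 24 culture libraries, but at most 0.59 TPM in 6 of the 16 nILC2 and iILC2 libraries (nILC2 CTRL 2, nILC2 KO 1 and 2, iILC2 CTRL 2, iILC2 KO 1 and 2), against the label of pooled sexes.

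In the RefSeq annotation of GRCm38.p6, the genes sit in 2 clusters. Serpina3f (chr12:104214544-104221129) and Serpina3g (chr12:104236147-104241939) are neighbours, separated by 15017 bases. Serpinb1a (chr13:32842092-32853206), Serpinb9 (chr13:32997061-33017955) and Serpinb6a (chr13:33917918-34002794) share a stretch with 17 serpin genes in all. Genes in such clusters are close copies of each other, so reads may be divided among them in a way that the deposited values do not show, and the split between Serpina3g and Serpina3f and between Serpinb6a and Serpinb6b is uncertain to that extent.

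The sequences just before the starts of Serpina3g and Serpina3f are shown because these are the only neighbouring pair among the 5 and had alike patterns below, and that of Serpinb6a because it holds the same motif and had another pattern. Each run gives the 250 bases before the start, 5′ to 3′ on the gene's own strand, from RefSeq on GRCm38.p6. Capitals mark TTCNNNGAA, the letters of the gamma-activated site that STAT factors bind, which reads the same on both strands.
Serpina3g, chr12:104235897-104236146, plus strand: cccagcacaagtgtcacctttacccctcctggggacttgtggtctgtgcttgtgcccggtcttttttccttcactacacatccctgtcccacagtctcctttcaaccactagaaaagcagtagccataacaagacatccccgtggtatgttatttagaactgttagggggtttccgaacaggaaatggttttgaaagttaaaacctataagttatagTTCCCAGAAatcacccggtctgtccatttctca
Serpina3f, chr12:104214294-104214543, plus strand: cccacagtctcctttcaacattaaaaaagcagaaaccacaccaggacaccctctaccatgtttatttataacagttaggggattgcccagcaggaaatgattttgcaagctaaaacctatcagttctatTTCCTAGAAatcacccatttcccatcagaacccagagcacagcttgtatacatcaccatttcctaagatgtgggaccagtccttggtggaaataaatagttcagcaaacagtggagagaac
Serpinb6a, chr13:34002795-34003044, minus strand: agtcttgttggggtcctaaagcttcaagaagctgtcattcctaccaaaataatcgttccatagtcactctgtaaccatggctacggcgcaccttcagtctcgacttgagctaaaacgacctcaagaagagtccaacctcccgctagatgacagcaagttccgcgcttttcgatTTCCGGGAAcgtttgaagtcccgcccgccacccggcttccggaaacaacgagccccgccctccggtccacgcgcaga
The motif begins 33 bases before the start of Serpina3g, 121 before that of Serpina3f and 77 before that of Serpinb6a. A further window of Serpina3f (chr12:104214383-104214632) leads up to a start other than the gene start. The same match begins 210 bases before that other start. TTCNNNGAA occurs in 7.0% of the 32851 RefSeq windows of this length. The printed windows of Serpina3g and Serpina3f could be aligned over 147 columns, 81.0% of them identical with 3 columns of gaps, and the motif lies within that stretch in both. In the windows of the 4 genes that have an entry (Serpinb1a has none), the retinoid receptor half-site AGGTCA (in 14.0% of all windows) had no match on either strand. The NF-kappaB site was searched only as 1 narrow pattern (in 1.2%), which had no match on either strand. Looser forms of that site were not searched, so these windows, that of Serpina3g included, may still hold one. The interferon-stimulated response element (in 3.0%) had 1 match each in the window of Serpinb9 and in the printed window of Serpinb6a. That of Serpinb9 (chr13:33004291-33004540) lies within the annotated gene and not at its start, and it holds no TTCNNNGAA. A further window of Serpinb6a (chr13:33936084-33936333), also not at the gene start, matched none of the patterns searched. A match of letters is a description of the window and not evidence of binding.

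Under IL-2 and IL-7 alone, Serpina3g led the 5 genes at each of the 3 times, and with IL-25 at 48 h and 72 h Serpinb6a led instead. The summed level of the 5 genes was 297 ± 34.2 TPM (SD, n = 4) at 4 h, 449 ± 34.9 at 48 h and 572 ± 19.0 at 72 h without IL-25. With IL-25 the sums were 196 ± 12.0, 109.9 ± 10.7 and 147 ± 11.9 TPM. Serpina3g made up 46.5% of the sum at 48 h without IL-25 and 6.25% with it, while Serpinb6a made up 16.6% and 88.7%. These are bulk libraries, in which fewer cells of one kind and less RNA per cell cannot be told apart.

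**Figure D1:**
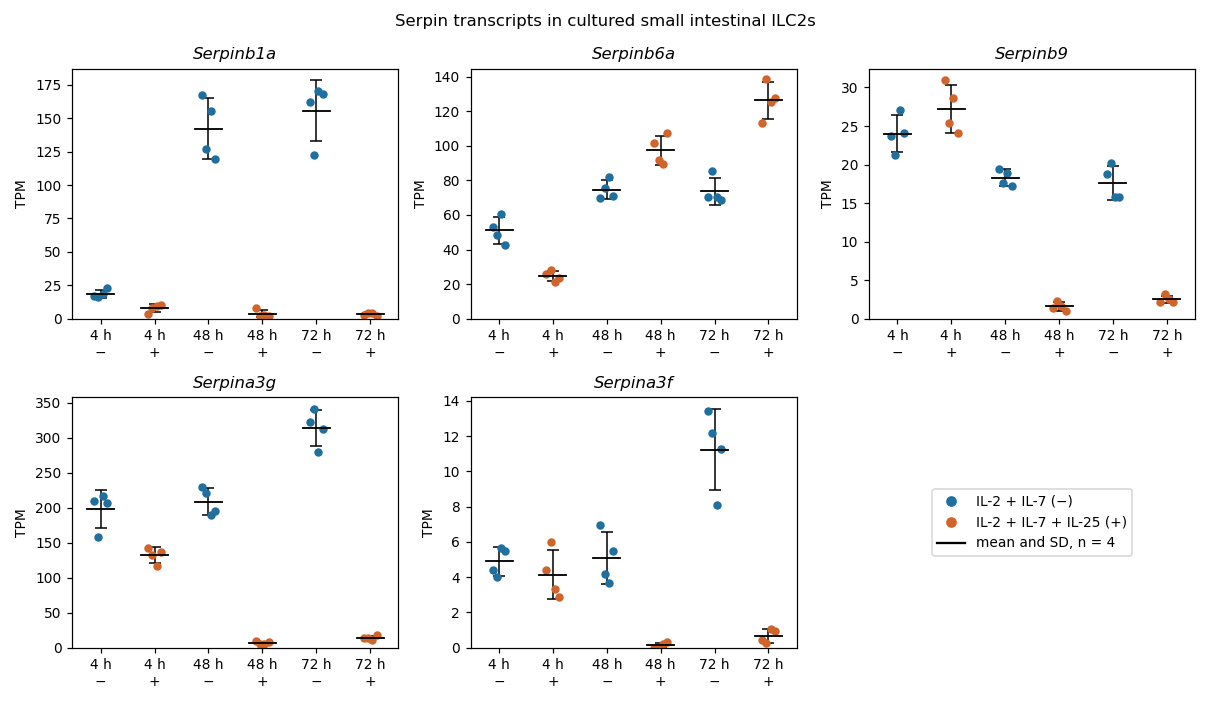
TPM of the 5 serpin genes (y axes from 0) in each of the 24 culture libraries (points), by hours of culture and absence (−) or presence (+) of IL-25; bars are means and SDs of 4 libraries. At 48 h and 72 h the libraries with IL-25 lie below those without it for Serpinb1a, Serpinb9, Serpina3g and Serpina3f, and above them for Serpinb6a.

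Serpinb1a, an inhibitor of neutrophil elastase, proteinase 3, cathepsin G and chymase, had the lowest log2 difference of the 5 with IL-25 at each of the 3 times. Without IL-25 it stood at 16.8, 16.3, 18.3 and 23.0 TPM at 4 h, at 167, 127, 155 and 119 TPM at 48 h and at 162, 122, 170.3 and 168 TPM at 72 h. With IL-25 it stood at 3.60, 7.75, 9.54 and 10.4 TPM at 4 h, at 7.80, 2.35, 3.09 and 2.08 TPM at 48 h and at 2.7, 4.47, 4.62 and 1.83 TPM at 72 h. The libraries with IL-25 were below those without it at every time, and the 48 h and 72 h groups without IL-25 overlapped each other while both were far above 4 h. The mean was 2.38-fold lower with IL-25 at 4 h, 37.1-fold lower at 48 h and 45.7-fold lower at 72 h, and without IL-25 it was 7.65-fold higher at 48 h than at 4 h. On the log2(TPM + 1) scale, on which every log2 value here is given, the differences with IL-25 were -1.22, -5.01 and -5.20. At 48 h 4 of the 10548 genes compared had a lower difference than Serpinb1a, and at 72 h 1 gene did.

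Serpina3g, a cytosolic inhibitor of lysosomal cysteine cathepsins such as cathepsin B, was the most abundant of the 5 in cultures without IL-25. Its values there were 209.6, 159, 217 and 207 TPM at 4 h, 230, 221, 189.8 and 195 TPM at 48 h and 323, 341, 280.1 and 313 TPM at 72 h. With IL-25 they were 143, 132, 117 and 137 TPM at 4 h, 9.24, 5.61, 5.19 and 7.43 TPM at 48 h and 13.4, 13.8, 11.1 and 17.5 TPM at 72 h. No library with IL-25 reached the lowest library without it at the same time. The mean was 1.5-fold lower with IL-25 at 4 h, 30.4-fold lower at 48 h and 22.5-fold lower at 72 h, with log2 differences of -0.57, -4.76 and -4.41. In both conditions the 72 h libraries lay above the 48 h libraries, by a log2 difference of 0.59 without IL-25 and 0.94 with it.

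Serpina3f, the neighbouring and closely related antichymotrypsin-like gene, followed the same order at a far lower level. It was at 4.41, 4.01, 5.65 and 5.49 TPM at 4 h without IL-25, at 6.98, 4.16, 3.68 and 5.48 TPM at 48 h and at 13.45, 12.2, 8.11 and 11.25 TPM at 72 h. With IL-25 it was at 4.40, 6.02, 3.30 and 2.86 TPM at 4 h, was listed at 0, 0, 0.20 and 0.32 TPM at 48 h and stood at 0.44, 0.25, 1.08 and 0.93 TPM at 72 h. The groups overlapped at 4 h and were apart at 48 h and 72 h, with log2 differences of -0.22 (0.08 after quantile normalization), -2.41 and -2.88. Because 2 of the 48 h libraries were at 0, the 48 h value depends on the pseudocount and was -4.74 with 0.1 TPM in place of 1 TPM. Serpina3g was 40.5 times as abundant as Serpina3f at 4 h without IL-25, 41.2 times at 48 h and 27.9 times at 72 h. The move from 48 h to 72 h without IL-25, a log2 difference of 1.02 for Serpina3f, left no overlap for these 2 of the 5 genes, in a comparison where 4.09% of all genes were higher without overlap.

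Serpinb9, the intracellular inhibitor of granzyme B, differed at the 2 later times. Without IL-25 it was at 23.7, 21.25, 27.04 and 24.1 TPM at 4 h, at 19.45, 17.6, 19.0 and 17.2 TPM at 48 h and at 18.8, 20.15, 15.8 and 15.8 TPM at 72 h. With IL-25 it was at 31.0, 25.4, 28.6 and 24.1 TPM at 4 h, at 1.39, 2.32, 1.65 and 1.05 TPM at 48 h and at 2.21, 3.19, 2.57 and 2.14 TPM at 72 h. At 4 h the groups overlapped, and at 48 h and 72 h the highest library with IL-25 was far below the lowest without it. The mean was 11.4-fold lower at 48 h and 6.98-fold lower at 72 h, and the log2 differences were 0.17, -2.91 and -2.40.

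Serpinb6a, a broad intracellular inhibitor of trypsin-like proteases and cathepsin G, changed direction over the culture. Without IL-25 it was at 53.0, 48.2, 60.4 and 42.6 TPM at 4 h, at 69.8, 75.8, 81.8 and 71.05 TPM at 48 h and at 70.5, 85.4, 70.6 and 68.5 TPM at 72 h. With IL-25 it was at 25.6, 28.4, 21.1 and 23.5 TPM at 4 h, at 102, 91.65, 89.35 and 107 TPM at 48 h and at 113, 139, 126 and 128 TPM at 72 h. The libraries with IL-25 were all lower at 4 h and all higher at 48 h and 72 h. The mean was 2.07-fold lower at 4 h, 1.31-fold higher at 48 h and 1.71-fold higher at 72 h, and the log2 differences were -1.02, 0.38 and 0.77. They kept these signs when libraries were rescaled by the median of ratios or quantile normalized. The differences at the 3 times come from separate libraries, and the change in direction between them was not tested.

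Counted together, 3 of the 5 genes were lower without overlap at 4 h, against 22.9% of all genes, and at 48 h and 72 h 4 were lower, against 24.8% and 29.4%, and 1 was higher, against 19.5% and 13.9%. The median log2 difference of the 5 was -0.57, -2.91 and -2.88 at the 3 times, and that of all genes was -0.12, -0.09 and -0.20. The choice of genes used these values, so nothing is read from the counts. Among all genes called by limma at the 3 times, 33.3%, 42.7% and 31.5% were higher. Scaling the libraries by their median ratio instead put those shares at 51.5%, 51.1% and 55.1%. Transcripts of alpha globin moved with IL-25 in the same libraries. Hba-a1 and Hba-a2, the only 2 of 6 erythroid markers listed, summed to 60.5 to 82.5 TPM at 4 h, 479 to 553 TPM at 48 h and 633 to 798 TPM at 72 h without IL-25, and to 5.60 to 9.37, 8.71 to 19.4 and 8.71 to 20.9 TPM with it. Levels of other cell type markers also differed at 48 h. The T cell markers, of which only Cd3e, Cd3g and Lck were listed, summed to 98.35 to 153 TPM without and 31.2 to 36.2 TPM with IL-25, with Cd3g at a mean of 109.9 and 24.3 TPM. The epithelial sum, of Epcam and Krt18 alone, was 95.9 to 113 and 35.1 to 40.5 TPM, with Epcam at means of 104 and 31.4 TPM. Krt18 went the other way, with a mean below 1 TPM without IL-25 and of at least 1 TPM with it. Cd79b, the only 1 of 5 B cell markers listed, was at 43.5 to 49.8 TPM without and 71.3 to 91.5 TPM with IL-25. Kit, the only mast cell and basophil marker listed, was at 8.76 to 16.9 and 5.31 to 6.73 TPM, and Cd68, the only macrophage and dendritic cell marker listed, overlapped at 1.04 to 3.51 and 2.52 to 5.11 TPM. The 13 ILC2 markers summed to 2265 to 2627 TPM without and 4474 to 5122 TPM with IL-25, and the list divided. Means of Il5 (187 and 2101 TPM), Klrg1 (454 and 815 TPM) and Icos (327 and 635 TPM) were higher with IL-25, and those of Gata3 (723 and 295 TPM), Rora (179 and 36.5 TPM), Il17rb (124 and 18.0 TPM), Il7r (49.3 and 17.9 TPM) and Thy1 (34.8 and 8.5 TPM) were lower. The part of any of these in the serpin differences was not tested.

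**Figure D2:**
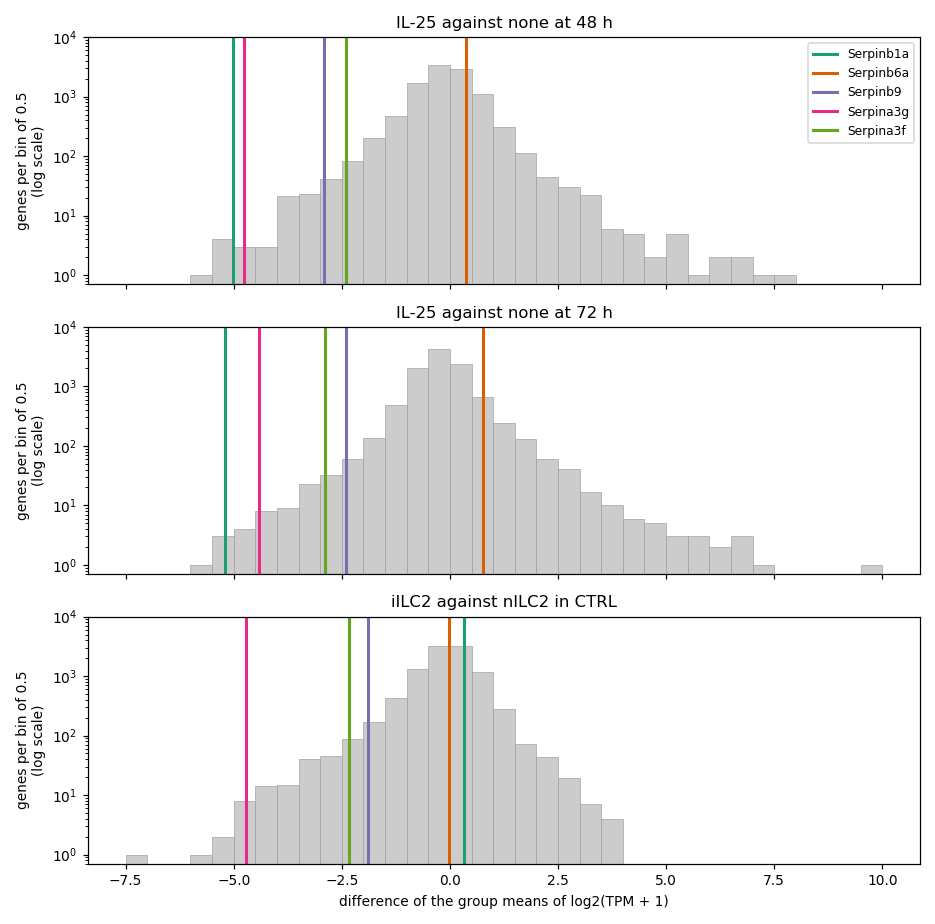
Number of genes (log axis) per 0.5 of log2 difference for IL-25 against none at 48 h and 72 h and for iILC2 against nILC2 in CTRL mice, with vertical lines at the 5 serpin genes. Serpinb1a lies at -5.01 and -5.20 in the culture panels and at 0.32 in the lower panel, while Serpina3g lies at -4.76, -4.41 and -4.71.

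In primary cells the 5 genes divided differently. In iILC2 of CTRL mice Serpina3g, Serpina3f and Serpinb9 were lower than in nILC2 of the same genotype, while Serpinb1a and Serpinb6a did not pass the test. These differences were tested with limma over all 10069 genes that passed the filter, with adjusted p-values over all of them. The 5 genes were picked with results of these data known, which the p-values do not take into account. In this comparison 23.6% of all genes were called lower and 21.9% higher. Marker levels also differed between nILC2 and iILC2 of CTRL mice. The 13 ILC2 markers summed to 2119 to 2368 TPM in nILC2 and 1291 to 1422 TPM in iILC2, with Il7r at means of 313 and 25.9 TPM, Il1rl1 at 66.8 and 3.5 TPM and Il2ra at 53.7 and 1.7 TPM. The direction of each of the other ILC2 markers is not given here, so the named genes do not stand for the list. The 3 listed T cell markers summed to 89.6 to 114 and 28.2 to 47.5 TPM, with Cd3g at means of 63.8 and 14.1 TPM and Cd5 at 2.7 and 0.04 TPM. Cd79b was at 117 to 154 and 238 to 282 TPM, Kit at 29.3 to 34.2 and 6.22 to 13.8 TPM, and Cd68 at 0.71 to 3.88 and 5.83 to 9.88 TPM. The epithelial sum was 18.4 to 30.4 TPM in nILC2 and 13.6 to 16.5 TPM in iILC2. Their part in the serpin differences was not tested.

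Serpina3g was at 177, 146, 178 and 175 TPM in nILC2 CTRL and at 208, 88.4, 101 and 98.9 TPM in nILC2 KO. In iILC2 it was at 7.30, 2.81, 5.14 and 7.97 TPM in CTRL and at 14.9, 4.97, 6.59 and 1.97 TPM in KO. Every iILC2 library lay far below every nILC2 library. The difference of iILC2 from nILC2 was -4.71 (SE 0.38, limma adjusted p = 1.5e-08) in CTRL and -4.11 (SE 0.38, limma adjusted p = 1.9e-07) in KO, and 6 and 5 of the 10069 genes had lower values.

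Serpina3f was at 6.34, 5.37, 4.70 and 6.59 TPM in nILC2 CTRL, at 8.31, 2.62, 1.74 and 4.27 TPM in nILC2 KO, at 0.20, 0.63, 0.09 and 0.45 TPM in iILC2 CTRL and at 0.10, 0.09, 0 and 0 TPM in iILC2 KO. It was below 1 TPM in all 8 iILC2 libraries and above it in all 8 nILC2 libraries. The difference of iILC2 from nILC2 was -2.34 (SE 0.27, limma adjusted p = 1.6e-06) in CTRL and -2.17 (SE 0.27, limma adjusted p = 8.9e-06) in KO.

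Serpinb9 was at 14.3, 10.2, 12.3 and 9.70 TPM in nILC2 CTRL, at 10.6, 9.43, 7.96 and 7.65 TPM in nILC2 KO, at 1.95, 2.92, 2.95 and 1.75 TPM in iILC2 CTRL and at 2.75, 3.00, 3.63 and 3.28 TPM in iILC2 KO. The iILC2 libraries lay below the nILC2 libraries in both genotypes. Serpinb9 was 4.86-fold lower in iILC2 than in nILC2 of CTRL mice (-1.90 on the log2 scale, SE 0.18, limma adjusted p = 8.9e-08) and 2.82-fold lower in KO mice (-1.24, SE 0.18, limma adjusted p = 2.9e-05).

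Serpinb1a was at 5.79, 11.8, 7.54 and 8.01 TPM in nILC2 CTRL, at 8.46, 10.3, 5.66 and 4.90 TPM in nILC2 KO, at 12.0, 10.7, 9.79 and 8.98 TPM in iILC2 CTRL and at 11.3, 10.5, 12.8 and 7.43 TPM in iILC2 KO. All 4 groups overlapped. The difference of iILC2 from nILC2 was 0.32 (SE 0.22, limma adjusted p = 0.26) in CTRL and 0.50 (SE 0.22, limma adjusted p = 0.10) in KO. The 2 tables hold separate experiments, and no level is compared across them.

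Serpinb6a was at 80.05, 112, 82.8 and 84.2 TPM in nILC2 CTRL, at 108, 116, 99.0 and 70.4 TPM in nILC2 KO, at 86.5, 89.25, 90.5 and 82.2 TPM in iILC2 CTRL and at 87.2, 93.7, 80.6 and 80.3 TPM in iILC2 KO. The groups overlapped throughout, and the difference of iILC2 from nILC2 was -0.03 (SE 0.13, limma adjusted p = 0.87) in CTRL and -0.18 (SE 0.13, limma adjusted p = 0.32) in KO. With Serpina3g low, Serpinb6a made up 82.2% of the summed level of the 5 genes in iILC2 CTRL and 80.4% in iILC2 KO, against 31.5% in nILC2 CTRL.

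**Figure D3:**
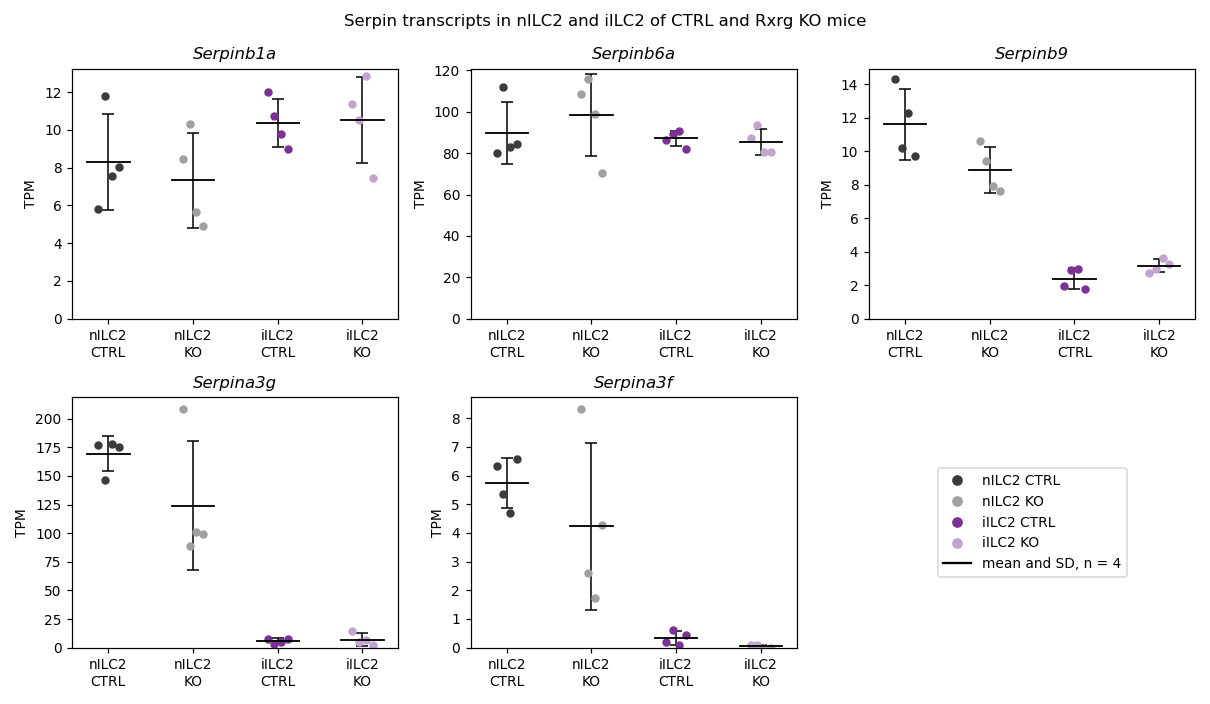
TPM of the 5 serpin genes (y axes from 0) in each of the 16 nILC2 and iILC2 libraries (points) of CTRL and Rxrg KO mice; bars are means and SDs of 4 libraries. Serpina3g, Serpina3f and Serpinb9 are low in iILC2 of both genotypes, and the nILC2 KO group of Serpina3g holds 1 library at 208 TPM above 3 between 88.4 and 101 TPM.

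No difference between KO and CTRL passed the threshold for any of the 5 genes in either cell population. In nILC2, where 1.54% of all genes were called, the KO differences were -0.53 (SE 0.38, limma adjusted p = 0.47) for Serpina3g, -0.51 (SE 0.27, adjusted p = 0.32) for Serpina3f and -0.34 (SE 0.18, adjusted p = 0.29) for Serpinb9. Those of Serpinb1a and Serpinb6a were -0.17 (SE 0.22, limma adjusted p = 0.72) and 0.12 (SE 0.13, adjusted p = 0.65). The KO and CTRL libraries overlapped for each gene. The library nILC2 KO 1 stood apart from its group, with a mean correlation of 0.970 with its group mates, the lowest of the 16, and it held the highest Serpina3g and Serpina3f levels of the group. Without it 1003 genes in place of 155 were called, Serpina3f was lower by -0.84 (limma adjusted p = 0.023), and Serpina3g had a difference of -0.81 (limma adjusted p = 0.19).

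In iILC2, limma called 0% of all genes for KO against CTRL (328 genes had an unadjusted p under 0.05), and each of the 5 genes had an adjusted p of 1. Their differences ran from -0.34 for Serpina3f to 0.31 for Serpinb9. The KO effects on Serpinb9, -0.34 in nILC2 and 0.31 in iILC2, differed by 0.66 (SE 0.25, unadjusted p = 0.016, limma adjusted p = 0.37), in a comparison where limma called 0% of all genes and 1059 had an unadjusted p under 0.05.

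The other serpins were few. Of 56 further serpin genes sought, 6 were listed in the culture table and 4 in the nILC2 and iILC2 table. None of the 4 tested in culture was called with IL-25 at 4 h, where limma called 40.3% of all genes (13.4% higher and 26.9% lower). At 48 h 1 was higher and 1 lower, against 50.1% of all genes called (21.4% higher and 28.7% lower). At 72 h 1 was higher and 2 lower, against 48.5% called (15.3% higher and 33.2% lower). Serpinb6b, a close relative of Serpinb6a that inhibits mouse granzyme A, did not share its direction at the later times. It was at 14.8 ± 1.39 TPM (SD, n = 4) without and 3.88 ± 1.17 with IL-25 at 48 h (-1.72 on the log2 scale, SE 0.18, limma adjusted p = 9.3e-09), and at 14.3 ± 2.17 and 9.23 ± 2.05 TPM at 72 h (-0.59, SE 0.18, limma adjusted p = 0.0076). Serpine2, which inhibits thrombin and plasminogen activators, rose at 48 h from 8.77 ± 2.52 to 22.4 ± 3.50 TPM (1.29, SE 0.21, limma adjusted p = 1.9e-05) and was lower at 72 h at 7.41 ± 2.68 against 4.62 ± 0.614 TPM (-0.54, SE 0.21, limma adjusted p = 0.041). Both calls at 72 h were lost when libraries were rescaled by the median of ratios (limma adjusted p = 0.085 for Serpinb6b and 0.19 for Serpine2) or quantile normalized (0.12 and 0.28). That of Serpine2 was also lost in 6 of the 24 fits that left out 1 library, namely replicates 2, 3 and 4 without IL-25 or replicates 1, 3 and 4 with it, where its difference ran from -0.70 to -0.34.

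In primary cells, where 45.5% of all genes were called between iILC2 and nILC2 in CTRL and 31.4% in KO, 1 of the 4 other serpins was higher and 1 lower in CTRL, and 1 was higher and 2 lower in KO. Serpinb6b was lower in iILC2 at 19.0 ± 2.48 TPM against 56.0 ± 12.7 (SD, n = 4) in nILC2 of CTRL mice (-1.498, SE 0.155, limma adjusted p = 3.5e-07). Serpini1, the inhibitor of tissue plasminogen activator known as neuroserpin, was higher in iILC2, at 8.77 ± 1.54 against 1.48 ± 1.22 TPM in CTRL (2.07, SE 0.27, limma adjusted p = 5.8e-06). In KO mice both differences were also called, at -1.11 (limma adjusted p = 2.7e-05) for Serpinb6b and 2.01 (limma adjusted p = 1.9e-05) for Serpini1. The other one called lower in KO was Serpinc1, the antithrombin gene, named after its values were seen, at 0.297 ± 0.115 against 1.11 ± 0.442 TPM (SD, n = 4; -0.69, SE 0.22, limma adjusted p = 0.021). Its call was lost with quantile normalization (-0.32, limma adjusted p = 0.30) and without iILC2 KO 2 (-0.64, limma adjusted p = 0.055). Of the 4 other serpins tested, 0 were called between KO and CTRL in either population, against 1.54% of all genes in nILC2 and 0% in iILC2.

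The proteases these inhibitors are known to bind were read from lists of granule serine proteases, cathepsins and caspases. Elane, Prtn3 and Ctsg, the elastase, proteinase 3 and cathepsin G genes, were not listed in either table. Of 3 granule serine proteases tested in culture, 0 were called with IL-25 at 4 h, where 40.3% of all genes were. At 48 h and at 72 h 2 were higher and 1 was not called, against 21.4% and 15.3% of all genes called higher. Granzymes A and B, killer-cell granule proteases, rose in culture with IL-25 at the later times. Gzmc, the third, was at means of 0.458 TPM without and 0.5 TPM with IL-25 at 48 h, and of 5.96 and 1.93 TPM at 72 h. Gzmb was at 51.9 ± 38.7 TPM (SD, n = 4) without and 1641 ± 49.6 with IL-25 at 48 h (5.25 on the log2 scale, SE 0.40, limma adjusted p = 5.8e-11) and at 94.5 ± 39.8 and 11099.6 ± 857 TPM at 72 h (6.95, SE 0.40, limma adjusted p = 2.7e-13). Gzma was at 17.3 ± 8.28 and 1647 ± 166 TPM at 48 h (6.66, SE 0.32, limma adjusted p = 6.3e-15). The ratio of mean Gzmb to mean Serpinb9 was 0.249 without and 0.231 with IL-25 at 4 h, 2.83 and 1024 at 48 h, and 5.35 and 4392 at 72 h. Per library the ratio ran from 0.930 to 6.03 without IL-25 at 48 h (1.82 for the means without replicate 2) and from 710 to 1575 with it. In primary cells Gzmb was not listed, and the ratio of mean Gzma to mean Serpinb9 was 22.1 in nILC2 CTRL, 32.9 in nILC2 KO, 901 in iILC2 CTRL and 518 in iILC2 KO. Single nILC2 libraries ran from 13.5 to 35.2 in CTRL and from 7.72 to 75.7 in KO, where the ratio of means was 21.2 without replicate 4, and single iILC2 libraries from 697 to 1487 in CTRL and from 407 to 662 in KO.

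Among 13 cathepsin and legumain genes tested, 1 was higher and 9 were lower with IL-25 at 4 h, 5 were higher and 5 lower at 48 h, and 7 were higher and 3 lower at 72 h. In the same comparisons of all genes 13.4% were called higher and 26.9% lower at 4 h, 21.4% and 28.7% at 48 h, and 15.3% and 33.2% at 72 h. Ctsh, the lysosomal aminopeptidase cathepsin H, was lower at 4 h (-0.98, SE 0.11, limma adjusted p = 1.4e-07) and higher at 48 h (2.50, SE 0.11, limma adjusted p = 1.7e-15) and 72 h (2.33, SE 0.11, limma adjusted p = 6.6e-15). Lgmn, the asparaginyl endopeptidase legumain, rose from 142 ± 17.8 to 364 ± 23.3 TPM (SD, n = 4) at 48 h (1.36, SE 0.09, limma adjusted p = 4.1e-12). Ctsb, encoding the cathepsin B that Serpina3g inhibits, was lower at 4 h at 54.1 ± 3.64 against 93.9 ± 12.2 TPM (-0.78, SE 0.10, limma adjusted p = 4.3e-07). At 48 h it was at 173 ± 22.5 with and 163 ± 15.7 TPM without IL-25 (0.08, SE 0.10, limma adjusted p = 0.53), and at 72 h at 195 ± 17.0 and 175 ± 9.34 TPM (0.15, SE 0.10, limma adjusted p = 0.19). For KO against CTRL in nILC2, where 1.54% of all genes were called, only Ctsc was called among the 13. Ctsc, which activates granule serine proteases, was at 66.4 ± 4.98 against 52.1 ± 3.20 TPM (0.34, SE 0.08, limma adjusted p = 0.036). It lost the call in 9 of the 16 fits without 1 library (CTRL 1, 3 or 4 or KO 2, 3 or 4 of nILC2, or KO 2, 3 or 4 of iILC2), with values from 0.31 to 0.38.

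Of 8 caspases tested, all 8 were lower with IL-25 at 4 h, 5 were lower and 1 higher at 48 h, and 4 were lower and 2 higher at 72 h. The shares of all genes called lower were 26.9%, 28.7% and 33.2%, and those called higher 13.4%, 21.4% and 15.3%. With libraries rescaled by the median of ratios 6 in place of 8 were lower at 4 h. Casp1, the inflammasome caspase, was at 57.8 ± 3.05 TPM without and 19.3 ± 2.07 with IL-25 at 48 h (-1.54, SE 0.12, limma adjusted p = 8.9e-11). In iILC2 of CTRL mice Casp1 was higher than in nILC2 (0.57, SE 0.13, limma adjusted p = 0.0016) and Casp4, which senses bacterial lipopolysaccharide in the cytosol, was lower (-0.76, SE 0.19, limma adjusted p = 0.0028).

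Inhibitors outside the serpin family were read from a list of their own. Of 10 tested, 1 was higher and 8 lower at 4 h, 1 higher and 7 lower at 48 h, and 4 higher and 1 lower at 72 h. All genes were called higher at rates of 13.4%, 21.4% and 15.3% and lower at 26.9%, 28.7% and 33.2%. The median log2 difference of the 10 was -0.60, -0.44 and 0.09, beside -0.12, -0.09 and -0.20 for all genes. Ctla2a, which encodes a protein like the propeptide of cysteine cathepsins, was at 1037 ± 42.7 TPM (SD, n = 4) without and 358 ± 20.2 with IL-25 at 48 h (-1.53, SE 0.08, limma adjusted p = 8.9e-14). It was also lower in iILC2 than in nILC2, at 8.87 ± 3.07 against 101 ± 32.4 TPM in CTRL (-3.37, SE 0.23, limma adjusted p = 2.1e-09). Furin, a convertase that processes secreted proproteins, is a protease and came from a separate list of plasminogen activation genes and furin. Of 4 genes tested there, 1 was higher and 1 lower at 4 h, beside the same shares of all genes. At 48 h and at 72 h 1 was higher and 3 were not called. Furin rose with IL-25 from 134 ± 9.04 to 340 ± 17.9 TPM at 4 h (1.34, SE 0.11, limma adjusted p = 4.6e-10) and from 10.9 ± 1.85 to 229 ± 21.8 TPM at 72 h (4.28, SE 0.11, limma adjusted p = 4.2e-20).

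Across the 24 culture libraries Serpina3g, Serpina3f, Serpinb9 and Serpinb1a were alike to different degrees, and Serpinb6a was not like them. As a description over libraries that share treatments and scaling, Pearson's r of log2(TPM + 1) was 0.957 between Serpina3g and Serpina3f, 0.939 between Serpina3g and Serpinb9 and 0.794 between Serpina3g and Serpinb1a. Over the 16 primary libraries these were 0.940, 0.925 and -0.482. Serpinb6a had r in culture of -0.753 with Serpinb9, -0.54 with Serpina3g, -0.457 with Serpina3f and -0.061 with Serpinb1a. Over the primary libraries its r was 0.254, 0.262, 0.216 and 0.38 with the same genes. The genes most like each member in culture were taken from 7321 genes with a group mean of at least 10 TPM. For Serpinb1a they were Tmem176a (r = 0.979), Ccr9 (0.974), Gpr34 (0.972) and Rgs18 (0.967), with r of -0.348, 0.590, -0.388 and -0.484 over the primary libraries. For Serpina3g they were Plscr1 (0.985), H2-K1 (0.984), Il2rg (0.980) and Tgtp1 (0.980), with 0.910, 0.976, 0.927 and 0.977. Those of Serpina3f were Saysd1 (0.957), Serpina3g (0.957), H2-Q7 (0.956) and Il2rg (0.951), so Il2rg stood in both lists. Serpinb9 had Ptger4 (0.975), Septin6 (0.975), Gpr183 (0.975) and Etv3 (0.973), and Serpinb6a had Gstp1 (0.980), Lat2 (0.974), Rab29 (0.973) and Vim (0.971). For Serpinb6a, r over the primary libraries was -0.226, -0.062, -0.155 and -0.122 for the same 4 genes.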

How the data were processed

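The authors deposited 2 tables of TPM from full-length Smart-seq2 libraries, 24 of cultured ILC2s and 16 of nILC2 and iILC2, read as paired ends of 150 bases per the labels and the study text. Per the submitters' processing notes, tools included cutadapt 2.10, STAR 2.7.5c and RSEM 1.3.3 with the mm10 build, and the role of each is not given in the sources used here. Which genes the authors kept in the tables is not stated, so a gene that is not listed need not be silent. ATAC-seq and CUT&Tag samples were not analysed here.

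Each table was fitted on its own in R 4.3.3 with limma 3.58.1 (lmFit, eBayes with trend) and 1 coefficient for each group. The input was log2(TPM + 1) of genes that reached 1 TPM in 4 or more libraries. Calls needed a Benjamini-Hochberg adjusted p, over all genes tested, under 0.05. On simulated data of the same size, 92% of genes changed by 1 on the log2 scale were recovered for IL-25 at 48 h (10548 genes tested) and 88% for KO against CTRL in nILC2 (10069 genes tested). Of genes changed by 0.5 and by -0.5, only 46% and 36% were recovered for KO against CTRL in nILC2. For IL-25 at 48 h these shares were 40% and 50%. Changed genes were drawn only from those above a set mean level, so recovery at low levels was not simulated. The precision that read depth gives is unknown, since TPM keeps none. No 2 libraries held identical values.

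The members and lists were chosen with earlier results of these data known. Named were the 5 members, Rxrg, other serpins with a group mean of at least 5 TPM, and up to 4 genes per list and comparison, those with the highest mean TPM among called genes with at least 10 TPM in the higher group. For each member the 4 genes of highest r in culture were named, leaving out unnamed gene models. Some items that these rules name are not reported here. Sequence windows were compared with Biopython 1.88. Replicate numbers in the titles were examined as a possible pairing through the correlation of deviations between same-numbered libraries. Only between nILC2 KO and iILC2 KO was each correlation over 0.1 (0.188, 0.102, 0.231 and 0.145). Between nILC2 CTRL and iILC2 CTRL 3 of 4 were over it (0.253, 0.153, 0.133 and 0.049). Libraries of different genotypes cannot share mice, yet nILC2 KO and iILC2 CTRL gave 0.243, 0.124, 0.126 and -0.019. Between nILC2 CTRL and nILC2 KO the values were 0.125, 0.131, 0.187 and -0.044. These correlations do not settle whether a number marks shared mice, and the reported fits had no term for it. In both genotypes the libraries with near-absent Y-linked expression had the same numbers in nILC2 and iILC2. Alternatives were other pseudocounts, filters, rescalings, fits of the compared groups alone, a replicate block, a term for Y-linked expression and each library left out.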

Additional observations from a re-analysis of the deposited data

Results flagged for a closer look

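Within a group of 4, 15 libraries among 176 gene and group pairs stood apart from the other 3, where chance alone sets about 1 in 20 groups apart. Serpina3g was at 208.14 TPM in nILC2 KO replicate 1, against 88.4 to 101 TPM in the other 3, and at 146.3 TPM in nILC2 CTRL replicate 2, against 175 to 178 TPM. Serpinb6a was at 111.89 TPM in the same CTRL library, against 80.05 to 84.2 TPM, and at 85.42 TPM in replicate 2 at 72 h without IL-25, the library in which Serpinb1a was lowest at 122.15 TPM. Among other serpins, Serpine2 reached 20.76 TPM in nILC2 CTRL replicate 3, and Serpini1 reached 3.30 TPM in nILC2 CTRL replicate 2 and 2.51 TPM in replicate 4 at 48 h without IL-25. Gzma was low at 101 TPM in replicate 3 at 4 h and high at 12.45 TPM in replicate 4 at 72 h, both without IL-25. Ctsb was low at 155.11 TPM and Casp1 low at 76.56 TPM in iILC2 CTRL replicates 4 and 1. Ctsd, the aspartic protease cathepsin D, was high at 670.86 TPM in replicate 4 at 72 h without IL-25 and low at 720.58 TPM in replicate 3 with it. Casp4 was low at 14.49 TPM in replicate 4 at 48 h with IL-25.

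Serpinb6a and 3 protease or inhibitor genes moved in opposite directions with IL-25 at different times, without overlap between the groups, and the change of direction was not tested. Serpinb6a had log2 differences of -1.02, 0.38 and 0.77 at 4 h, 48 h and 72 h. Ctsh had -0.98, 2.50 and 2.33. Ctsd had -0.94, -0.59 and 0.39, and Ctla2a had -1.54, -1.53 and 0.27, the last of which was 0.08 (limma adjusted p = 0.49) with quantile normalization.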

How the results depend on the processing

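Of 1685 values of the 5 genes under an alternative, 1661 were counted as unchanged. In culture these moved by less than the spread between libraries. In primary cells they kept their side of the threshold, whatever the sign or size of a value that was not called. Of the rest, 20 culture values moved by the spread or more and 4 values in primary cells became called. Within the 1661, a change of sign occurred in 24, over 9 differences of at most 0.224 in size as reported. None of these differences was called in primary cells or exceeded the spread between libraries in culture. Of these, the IL-25 difference of Serpina3f at 4 h was 0.08 with quantile normalization, and its difference of KO effects was -0.82 with a pseudocount of 0.1 TPM, against 0.17 as reported. With a pseudocount of 0.1 TPM the IL-25 difference of Serpina3f was -4.74 at 48 h and -4.01 at 72 h and that of Serpinb9 -3.49 and -2.77, while 48 h against 4 h with IL-25 gave -4.44 for Serpina3f and -4.05 for Serpinb9, and 72 h against 48 h with IL-25 gave 1.88 for Serpina3f. With libraries rescaled by the median of ratios, the IL-25 difference at 72 h was -4.19 for Serpina3g and 1.00 for Serpinb6a. The same rescaling gave, for 48 h against 4 h without IL-25, 0.41 for Serpina3g, 3.18 for Serpinb1a, 0.87 for Serpinb6a and -0.053 for Serpinb9, and with IL-25 -3.85 for Serpina3g and 2.22 for Serpinb6a. Quantile normalization gave 0.34 for Serpinb9 with IL-25 at 4 h, 3.23 for Serpinb1a, 0.81 for Serpinb6a and -0.078 for Serpinb9 at 48 h against 4 h without IL-25, and -3.78 for Serpina3g with IL-25. It also gave 0.65 (limma adjusted p = 0.031) for Serpinb1a in iILC2 against nILC2 of KO mice, and turned Ctsb in CTRL mice from higher to -0.025. The median of all genes shifted by -0.28 at 48 h against 4 h without IL-25, and the cause of these moves was not tested.

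For KO against CTRL in nILC2, 155 genes were called as reported, 82 with a pseudocount of 0.1 TPM, 272 with the median of ratios, 5 when only those 2 groups were fitted, 87 with a term for Y-linked expression, 317 with the replicate block, and 12 (without nILC2 CTRL 4) to 1003 (without nILC2 KO 1) with 1 library left out, a range in which each of the 16 libraries moved the count by over 1.5 times. The difference of the KO effects gave 0 as reported, 1 with quantile normalization, 5 with the Y-linked term, 8 with the replicate block and 0 to 132 with 1 library left out, the highest without nILC2 KO 1. For 72 h against 48 h without IL-25, 40 genes were called as reported, 26 with a pseudocount of 0.1 TPM, 86 with quantile normalization, 1 in a fit of the 2 groups alone and 11 (without replicate 3 at 72 h) to 49 with 1 library left out. With 1 library left out, Serpina3f in nILC2 KO ran from -0.84 (without nILC2 KO 1) to -0.25 (without nILC2 KO 3), and iILC2 against nILC2 in KO ran from 0.35 to 0.66 for Serpinb1a (limma adjusted p = 0.037 without nILC2 KO 2) and from -0.33 to -0.094 for Serpinb6a (0.028 without nILC2 KO 4). The replicate block, which gave same-numbered libraries a shared term across genotypes, changed no call of the 5 genes. A block within each genotype was not fitted, so a pairing of nILC2 with iILC2 within a genotype was not examined by it. Apart from nILC2 KO and iILC2 KO, 1 or more of the 4 same-numbered pairs had a correlation of 0.1 or less. Same-numbered libraries also correlated across genotypes, and the data do not settle whether any of the numbers pair libraries.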
